A study of Drosophila melanogaster with 12 samples.

Results

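The 9 purine synthesis genes Prat, Gart, Pfas, Paics, AdSL, AdSS, ras, bur and awd were followed across intestinal stem cells of Drosophila melanogaster with altered Shavenbaby (Svb), the transcription factor that the gene ovo encodes. They were taken by symbol from a table of 8802 genes, and all 9 passed the filter on low counts that left 7992 genes for testing. The set was chosen with results of these data in view, among them a lower level of Gart in the libraries labelled svb RNAi. Values of the libraries labelled svb RNAi against control are therefore given as a description, and tests are given for SvbACT and SvbREP.

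Cells build purine nucleotides by assembling the purine ring stepwise on a ribose phosphate until inosine monophosphate (IMP) is made. From IMP the route forks into a branch to AMP and a branch to GMP, and kinases then charge the nucleotides for use in RNA, DNA and energy transfer. Dividing cells, such as the stem cells that renew the fly midgut, need purines for new RNA and DNA.

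Prat encodes the amidophosphoribosyltransferase that opens the route, Gart an enzyme that carries out several of its steps on a single polypeptide, Pfas the amidotransferase between those steps, and Paics the enzyme that adds carbon dioxide and then aspartate. AdSL, adenylosuccinate lyase, acts both in the ring-building part and at the end of the AMP branch, and AdSS, adenylosuccinate synthase, begins the AMP branch. In the GMP branch, ras (raspberry) encodes IMP dehydrogenase and bur (burgundy) GMP synthetase. The last gene, awd (abnormal wing discs), encodes a nucleoside diphosphate kinase, which charges purine and pyrimidine diphosphates alike.

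RNA was sequenced from sorted cells of the posterior midgut (R3 to R5) of virgin females aged 9 days, which had spent 3 days at room temperature and 6 days at 29 °C. All 4 groups, of 3 libraries each, carried esg-Gal4, UAS-GFP and tubGal80TS, so that the warm period switched on the UAS transgenes in cells where esg is active. Control flies came from a cross to Canton-S and had no further transgene, and the other groups carried UAS-SvbRNAi, UAS-SvbACT::GFP or UAS-Svb3Kmut::GFP, which is called SvbREP here after the sample titles. More than 20 females were pooled for each library, and the days on which the replicates were made differed. The gene esg is active in stem cells and in their enteroblast daughters, so the sorted cells can hold both. Mean esg levels here were 1291 CPM in SvbREP, 2027 in control, 2391 in SvbACT and 2046 in the libraries labelled svb RNAi.

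Library totals were 5557969 to 6575392 counts for control, 4361322 to 6036911 for SvbACT, 2965852 to 5786969 for SvbREP and 4298998 to 5518895 for the libraries labelled svb RNAi. The targeted gene ovo had 3 to 64 counts in control libraries, while those labelled svb RNAi had 206 to 225, opposite to a knockdown. Its counts were 8803 to 11901 in SvbACT and 6145 to 12642 in SvbREP. Transgene and endogenous reads are not separated, so directions in the libraries labelled svb RNAi rest on the label. Of the listed progenitor genes, 13 of 14 were in the table, with summed levels of 13910.1 to 22143 CPM over the 12 libraries. The same sums were 324 to 798 CPM for 15 enterocyte genes, 389 to 3829 for 14 enteroendocrine genes, 16.8 to 48.5 for 10 visceral muscle genes and 68.6 to 358 for the 3 of 6 hemocyte genes in the table. Of those hemocyte genes, Hml was at 0 in control. Levels are counts per 1000000 counts of the library, scaled by normalisation factors (CPM).

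In the BDGP6.54 annotation, which uses dm6 coordinates, Gart lies on chromosome 2L at 7014623 to 7023898, Pfas at 6041181 to 6046050 and bur at 21174182 to 21179683, all on the minus strand. Chromosome 3R holds Prat at 7909598 to 7911779, AdSL at 17018780 to 17021120, AdSS at 20824667 to 20830580 and awd at 31745172 to 31746077, again on the minus strand. The X chromosome holds Paics at 12757036 to 12760617 on the minus strand and ras at 10744502 to 10749097 on the plus strand. The 9 genes thus form no cluster, and the counts cover whole genes. Gart has 3 annotated transcripts, of 1556 to 4718 bases, which the gene count does not tell apart. The cuticle gene Pcp sits within an intron of Gart on the other strand, shares no exon bases with it and had at most 13 counts in any library. Gart does share 115 exon bases with CG43322 on the other strand, which is not analysed here. Prat shares 124 exon bases with Taf7, which had 49 to 176 counts, and Pfas shares 103 with CG31643, which had 70 to 168 counts. AdSS shares 103 exon bases with the antisense gene asRNA:CR44047, which had 18 to 68 counts. Among the neighbours of ras are stx, with 160 shared exon bases and 1673 to 4631 counts, lncRNA:CR44766 on the same strand, with 154 shared exon bases and not analysed here, and Rph, with 21 and 7 to 47 counts. The exons of bur share 354 bases with asRNA:CR44911, with 7 to 39 counts, and those of awd share 7 with CG1896, with 33 to 100. Strand use in the counting is not given in the sources used here, so reads from these shared stretches cannot be assigned with certainty.

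Levels between genes were compared per kilobase of exon. In control cells AdSS and awd stood highest, at 217 ± 31.6 and 208 ± 31.9 CPM per kilobase (SD, n = 3 each), with overlapping libraries. A level below that of AdSS was found in control for 97.1% of the 7879 tested genes with a known length, and for awd the share was 96.9%. Next came ras at 59.0 ± 7.89, Gart at 50.2 ± 15.5 and bur at 37.6 ± 0.789 CPM per kilobase, where neighbours in this order overlapped, and then Paics at 28.8 ± 2.76, apart from both its neighbours (SD, n = 3 each). The lowest were AdSL at 13.2 ± 0.988, Prat at 12.7 ± 2.39 and Pfas at 9.89 ± 4.41 CPM per kilobase (SD, n = 3 each), again overlapping. These last 3 lay near the middle of all genes in control, with 51.8%, 50.5% and 43.4% of genes below them. In SvbREP the order by mean level was the same as in control, and in SvbACT awd at 232 ± 29.0 and AdSS at 161 ± 28.7 CPM per kilobase changed places, as did Pfas and Prat at 14.4 ± 4.21 and 13.2 ± 0.476 (SD, n = 3 each). There the libraries of Pfas and Prat overlapped, and every awd library was above every AdSS library.

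**Figure D1:**
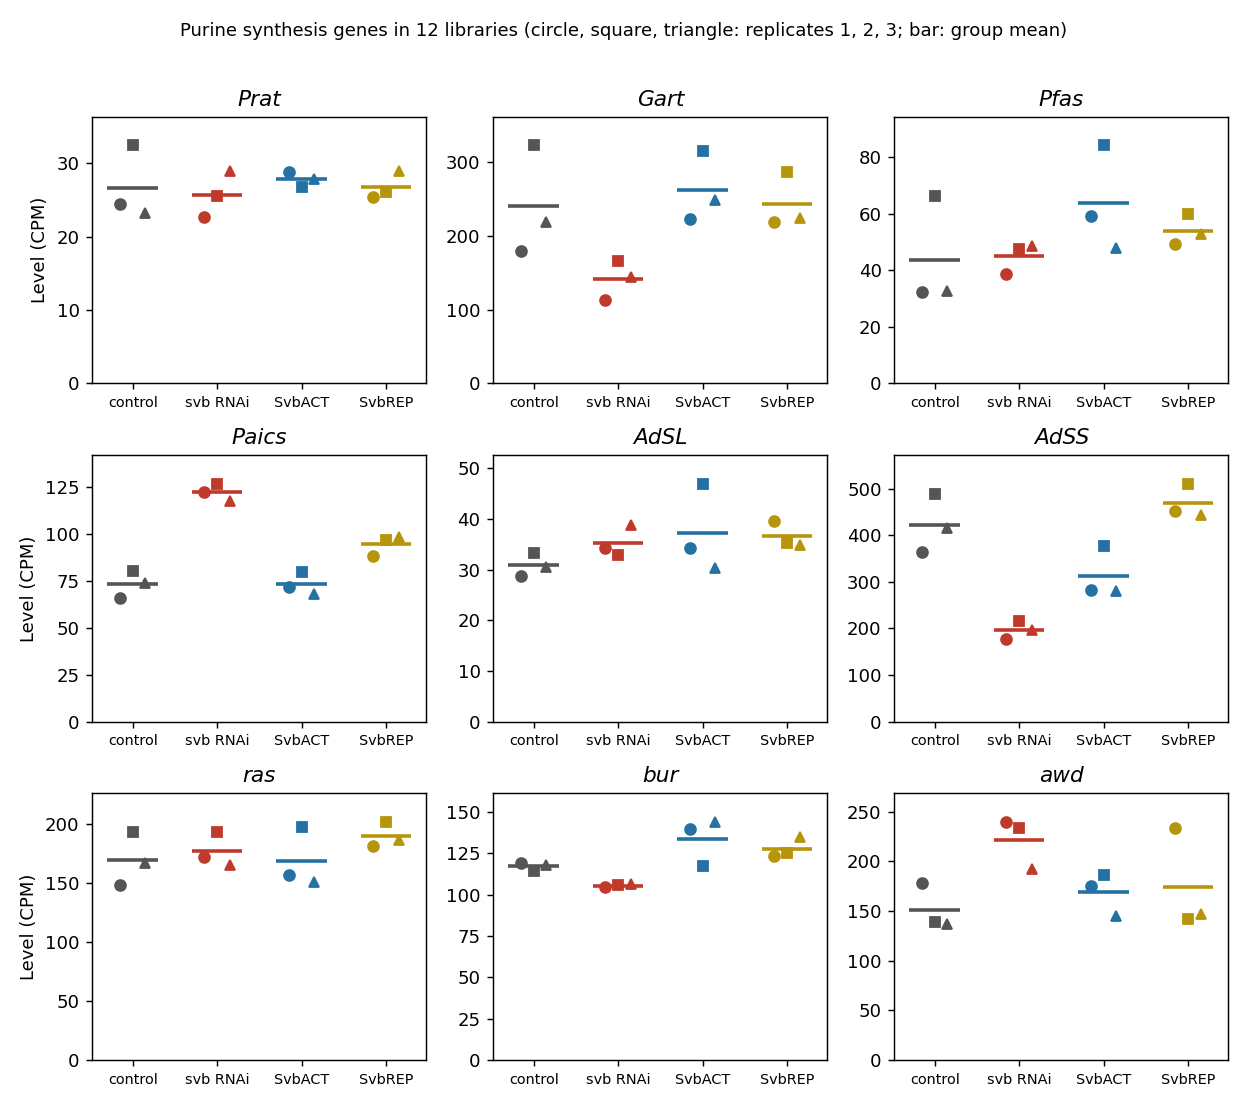
Levels of the 9 genes in CPM (vertical axes, each from 0) in the 12 libraries, by group on the horizontal axes, with circles, squares and triangles for replicates 1, 2 and 3 and a bar for the group mean. The libraries labelled svb RNAi lie below all control libraries for Gart, AdSS and bur and above them for Paics and awd, and the SvbACT libraries lie below all SvbREP libraries for Paics and AdSS.

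In the libraries labelled svb RNAi, members of the route lay on both sides of control. Gart was at 179, 323 and 218 CPM in control replicates 1, 2 and 3, and the libraries labelled svb RNAi held 113, 166 and 144 CPM. All 3 of the latter were below the lowest control library, although the control libraries themselves spread widely, with replicate 2 far above the others. The fitted log2 fold change was -0.77 (SE 0.204), a level 41.2% lower. Without control replicate 2, the highest Gart library of that group, it was -0.51. In these bulk samples, less RNA per cell and fewer cells of a type cannot be told apart.

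AdSS stood further from control than Gart did. Control libraries held 365, 488 and 416 CPM of AdSS and the libraries labelled svb RNAi 178, 215 and 198, with no overlap. The log2 fold change was -1.10 (SE 0.140), so the level of the gene that begins the AMP branch was 53.4% lower. In this group awd, at 305 ± 36.0 CPM per kilobase, was the highest of the set, and AdSS followed at 101 ± 9.50 (SD, n = 3 each), without overlap.

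Paics lay the other way, at 66.2, 80.2 and 74.1 CPM in control and 122, 127 and 118 in the libraries labelled svb RNAi. Each of the latter was above every control library, with a log2 fold change of 0.74 (SE 0.116). The kinase gene awd went from 178, 139 and 136 CPM in control to 239.7, 234 and 192, also without overlap, a log2 fold change of 0.55 (SE 0.179). The GMP synthetase gene bur had a small difference with groups apart, at 117 ± 2.46 CPM in control and 105 ± 0.897 in the libraries labelled svb RNAi (SD, n = 3 each). For bur the fitted value was -0.15 (SE 0.105) on the log2 scale.

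The other 4 genes overlapped control in the libraries labelled svb RNAi. Prat, the opening enzyme, had a log2 fold change of -0.050 (SE 0.180), Pfas of 0.040 (SE 0.261), AdSL of 0.20 (SE 0.180) and ras of 0.062 (SE 0.129). With upper quartile factors 871 of 1806 calls over all genes were higher, against 539 of 1633 with the factors used here, and the call of each of the 9 genes stayed as it was. Over all tested genes, the ranges of these groups lay apart for 35.7% (15.9% higher and 19.8% lower), and for 5 of the 9 purine genes. An edgeR adjusted p-value under 0.05 in this comparison was found for 20.4% of all tested genes, 6.74% higher and 13.7% lower. By that rule 4 of the 9 were called, 2 in each direction, and since the set was chosen with this comparison in view, nothing is read from that count. The authors' deposited table called the same 4 genes, Gart and AdSS as lower and Paics and awd as higher.

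Markers moved in these libraries too. Summed progenitor markers were 13910.1 to 16529.7 CPM in the libraries labelled svb RNAi against 17199 to 20552 in control, and 7 of 13 tested were lower and 1 higher. Among them the Notch ligand gene Dl was at 533 against 958 CPM (group means). Cell cycle genes, 20 of 21 of them in the table, summed to 1360.2 to 1392 CPM against 936 to 1083, with 4 of 20 tested higher and 1 lower. Much of that sum was Top2, a DNA topoisomerase gene, at 604 against 378 CPM (group means). The hemocyte sums were 68.6 to 76.9 against 265 to 358 CPM, most of it from crq. Enterocyte and enteroendocrine sums overlapped control, while 1 of 15 enterocyte genes and 2 of 10 tested enteroendocrine genes were called lower and 0 of either list higher. Mean Myo31DF, an enterocyte myosin gene, was at 190.3 against 393 CPM, and the enteroendocrine peptide genes Tk and Orcokinin at 4.31 against 44.2 and 169.8 against 37.1 CPM, with Mip at 0. The part of these differences in the purine gene levels was not tested.

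SvbACT was compared with control to ask whether the activator form changes the same route. In this comparison, fitted without a replicate block, 0 of the 9 genes passed the edgeR test after adjustment over all genes. Of all tested genes 9.15% did (3.92% higher and 5.23% lower). At an unadjusted p-value under 0.05 there was 1 gene, AdSS, and DESeq2 called 1 after adjustment, again AdSS, beside 900 of 8612 genes in all. The groups overlapped for each of the 9 genes, against 25.0% of all genes with groups apart. The median absolute log2 fold change was 0.16 for the 9 genes and 0.26 for all genes.

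AdSS was at 282, 378 and 279.7 CPM in SvbACT replicates 1, 2 and 3, against 365, 488 and 416 in control. SvbACT replicates 1 and 3 lay below every control library, and replicate 2 overlapped them. The log2 fold change was -0.43 (SE 0.138, adjusted p = 0.0666 by edgeR), short of the threshold. Same-numbered libraries had weakly correlated deviations here (0.113, 0.248 and 0.189 over all tested genes), and the labels name no block. When replicate number was fitted as a block the value became -0.44 (edgeR adjusted p = 0.00252), past the threshold. With the block, calls over all genes also rose from 731 to 1047, so in edgeR fits of all 12 libraries the AdSS call turns on that choice. DESeq2 called AdSS without a block (DESeq2 adjusted p = 0.0337). Within the same number, log2 ratios of SvbACT to control were -0.37, -0.37 and -0.57 for replicates 1, 2 and 3, lower in 3 of 3 pairs. Without the block, AdSS also passed when control replicate 1 was left out (adjusted p = 0.0445 by edgeR) or SvbACT replicate 2 was (edgeR adjusted p = 0.0139).

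Pfas had the largest positive value of the set in SvbACT. It was at 59.1, 84.3 and 47.8 CPM in SvbACT and 32.4, 66.4 and 32.6 in control, where replicate 2 stood above the other control libraries and overlapped the SvbACT range. The log2 fold change was 0.54 (SE 0.260, adjusted p = 0.261 by edgeR). Without control replicate 2 it became 0.97 (edgeR adjusted p = 0.0113), so its side of the threshold turns on that library. With the replicate block it was 0.57 (edgeR adjusted p = 0.0576). Within the same number, log2 ratios of SvbACT to control were 0.87, 0.34 and 0.55 for replicates 1, 2 and 3, all higher.

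Gart did not differ detectably between SvbACT and control. Its SvbACT libraries held 222, 315 and 249 CPM, within the control range of 179, 323 and 218 CPM. The log2 fold change was 0.13 (SE 0.202, adjusted p = 0.818 by edgeR), and an interval of 2 standard errors either side ran from -0.27 to 0.53. Further intervals were -0.30 to 0.42 for Prat, -0.24 to 0.23 for Paics, -0.090 to 0.63 for AdSL, -0.27 to 0.25 for ras, -0.020 to 0.40 for bur and -0.20 to 0.52 for awd. A change of 1 on the log2 scale, a doubling, thus lies outside the interval of each of these 7 genes. For Pfas the interval was 0.020 to 1.06, which includes a doubling, and for AdSS it was -0.71 to -0.16. In the fit of all 12 libraries without a block neither of them passed the edgeR test after adjustment, and with the block AdSS did.

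SvbREP was compared with control in the same way, and again 0 of the 9 genes passed the edgeR test, against 4.05% of all tested genes (1.35% higher and 2.70% lower). At an unadjusted p-value under 0.05 there was 1 gene, Paics, and DESeq2 called 0. All 9 fitted log2 fold changes were above 0, with a median of 0.17 against -0.0031 for all genes. The groups lay apart for 3 of the 9, Paics, AdSL and bur, each higher in SvbREP, against 19.3% of all genes with groups apart in either direction and 8.85% with SvbREP higher. Marker lists also lay to one side here. The 10 tested enteroendocrine genes were all above 0, with a median log2 fold change of 1.33 (0 called by edgeR, 3 at an unadjusted p-value under 0.05, 1 called by DESeq2). The 15 enterocyte genes had a median of -2.22, with 2 above 0, 1 called lower by edgeR and 5 called by DESeq2. Their summed levels overlapped control, at 555 to 3829 against 389 to 1232 CPM and 491 to 672 against 411 to 798 CPM. Most of the enterocyte sum in SvbREP was Myo31DF, at 535 against 393 CPM in control (group means), so that sum does not follow the median. The part of these lists in the purine gene values was not tested.

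Paics was at 88.2, 96.7 and 98.7 CPM in SvbREP and 66.2, 80.2 and 74.1 in control, and every SvbREP library exceeded every control library. Its log2 fold change was 0.36 (SE 0.117, adjusted p = 0.104 by edgeR), short of the threshold. With the replicate block it was 0.37 (edgeR adjusted p = 0.0496), though same-numbered libraries of these groups were not taken as paired. The other genes apart from control had smaller values, 0.24 (SE 0.181, adjusted p = 0.524 by edgeR) for AdSL and 0.12 (SE 0.106) for bur. Gart had a log2 fold change of 0.022 (SE 0.203) with an interval of -0.38 to 0.43, and AdSS of 0.15 (SE 0.138) with an interval of -0.12 to 0.43. For awd the SvbREP libraries were at 233, 142 and 146 CPM, with replicate 1 well above the others, and the log2 fold change was 0.20 (SE 0.180).

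SvbACT was then compared with SvbREP directly. The control libraries and those labelled svb RNAi entered only through the filter, the normalisation factors and the shared estimate of spread. AdSS was the gene of the set that passed the test, lower in SvbACT, where 13.1% of all genes passed and 6.63% did so in that direction, the rest (6.51%) being higher. SvbACT libraries held 282, 378 and 279.7 CPM and SvbREP libraries 453, 511 and 444, with no overlap. The level was 33.2% lower in SvbACT, a log2 fold change of -0.58 (SE 0.139, adjusted p = 0.0106 by edgeR). Same-numbered libraries gave log2 ratios of -0.68, -0.44 and -0.67, lower in 3 of 3 pairs. The call was lost, at edgeR adjusted p-values of 0.0626, 0.0575 and 0.0527, when SvbACT replicate 1, SvbACT replicate 3 or SvbREP replicate 2 was left out.

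Paics lay close to the threshold in the same direction. Its levels were 72.0, 79.8 and 68.1 CPM in SvbACT and 88.2, 96.7 and 98.7 in SvbREP, groups that did not overlap. The log2 fold change was -0.37 (SE 0.118, adjusted p = 0.0516 by edgeR). With the replicate block, which the labels do not name, Paics passed at -0.37 (edgeR adjusted p = 0.0279). Calls over all genes rose from 1050 to 1405 with that block. Without the block it also passed when control replicate 2 (edgeR adjusted p = 0.0434) or SvbACT replicate 2 (edgeR adjusted p = 0.0438) was left out of the model. Groups lay apart for 2 of the 9 genes, AdSS and Paics, against 27.9% of all genes.

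The remaining 7 genes overlapped between SvbACT and SvbREP. Gart had a log2 fold change of 0.11 (SE 0.203) with an interval of -0.30 to 0.51, and ras of -0.17 (SE 0.130) with an interval of -0.43 to 0.085. For bur and awd they were 0.066 (SE 0.106) and -0.039 (SE 0.180), and for Prat, Pfas and AdSL 0.047 (SE 0.182), 0.24 (SE 0.261) and 0.027 (SE 0.181).

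The genes of the GMP branch and of the opening step passed the test in none of the comparisons of SvbACT, SvbREP and control. Over all 12 libraries ras, for IMP dehydrogenase, ran from 148 to 202 CPM and bur, for GMP synthetase, from 104 to 144. For bur the SvbACT libraries held 139.5, 118 and 144 CPM, with replicate 2 within the control range and the others above it, and the SvbREP libraries 123, 125 and 135. Prat, at the head of the route, ran from 22.7 to 32.4 CPM over the 12 libraries and AdSL from 28.7 to 47.0, where SvbACT replicate 2 was the highest.

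Enteroendocrine markers differed between these groups. All 14 listed genes were in the table, and their summed level was 486 to 839 CPM in SvbACT and 555 to 3829 in SvbREP. Of 10 tested, 3 were lower in SvbACT, where 6.63% of all tested genes were called lower and 6.51% higher. AstA, at 0 in SvbACT, was low in the other groups too. Its means were 0.42 CPM in control, 0.060 with the svb RNAi label and 1.52 in SvbREP (SD 2.63). Of 13 progenitor genes, 2 were higher in SvbACT and 0 lower, and the summed levels were 17571 to 22143 CPM in SvbACT and 15735 to 18979.6 in SvbREP. SvbREP replicate 3 had the lowest enteroendocrine sum of its group, 555 CPM, within the SvbACT range. Its AdSS level, 444 CPM, was the lowest of the SvbREP group and above all SvbACT libraries. Its Paics level was the highest of the 9 libraries without the svb RNAi label. These values come from a single library, and nothing is read from them. Summed cell cycle genes were 1521 to 1634 CPM in SvbACT and 909 to 1028 in SvbREP, and the part of these marker differences in the AdSS difference was not tested.

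**Figure D2:**
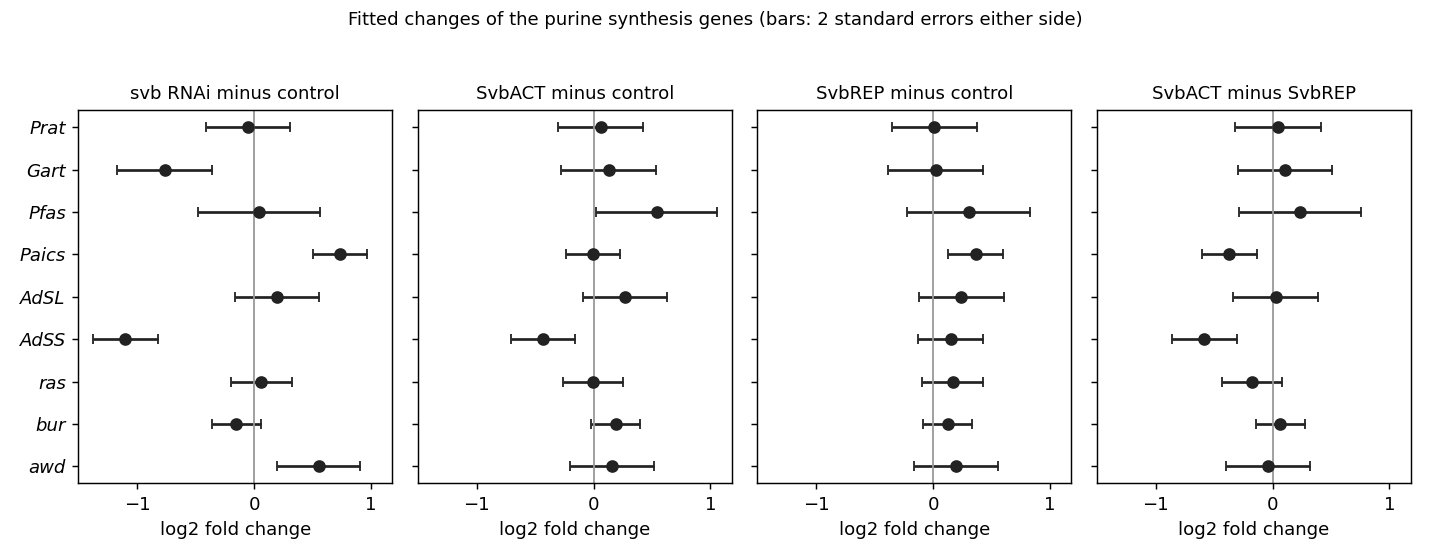
Fitted log2 fold changes of the 9 genes (horizontal axes) in the comparisons with control and between SvbACT and SvbREP, with bars of 2 standard errors either side. The left panel is a description, since the set was chosen with it in view, and AdSS lies below 0 in it, in SvbACT against control and in SvbACT against SvbREP.

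AdSS and Paics thus differed in how the groups were ordered. AdSS was highest in SvbREP and control (469 ± 36.2 and 423 ± 61.6 CPM), then SvbACT (313 ± 55.9) and then the libraries labelled svb RNAi (197 ± 18.5; SD, n = 3 each). The first pair overlapped, as did control and SvbACT, while SvbACT and the libraries labelled svb RNAi did not. Paics ran from 122 ± 4.59 CPM with the svb RNAi label through 94.5 ± 5.57 in SvbREP to 73.5 ± 7.04 in control and 73.3 ± 5.98 in SvbACT (SD, n = 3 each), where only the last pair overlapped among neighbours. Gart, in contrast, was at 262 ± 47.6, 244 ± 37.8 and 240.0 ± 74.3 CPM in SvbACT, SvbREP and control (SD, n = 3 each), which overlapped, and at 141 ± 26.6 in the libraries labelled svb RNAi.

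Part of the spread within groups followed the replicate number. Replicate 2 was above its group mean in all 4 groups for Gart, Pfas, Paics, AdSS and ras, 5 of the 9 genes, against 13.9% of all tested genes. For Gart these deviations of log2 CPM were 0.25 to 0.47, for Pfas 0.090 to 0.68 and for AdSS 0.12 to 0.28. Replicate 1 was below its group mean in all 4 groups for Gart, Pfas, AdSS and ras, against 9.32% of all genes. The kinase gene awd behaved differently, with replicate 1 above the mean in every group (0.062 to 0.46) and replicate 3 below it (-0.21 to -0.14). So Gart, Pfas, AdSS and ras were low in replicate 1 and high in replicate 2 of every group. Replicate 3 lay on both sides of the group mean for Gart, Pfas and AdSS. Deviations within a group balance out, so those of replicates 1 and 2 are not separate evidence. What the numbers share beyond that is not stated in the labels.

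**Figure D3:**
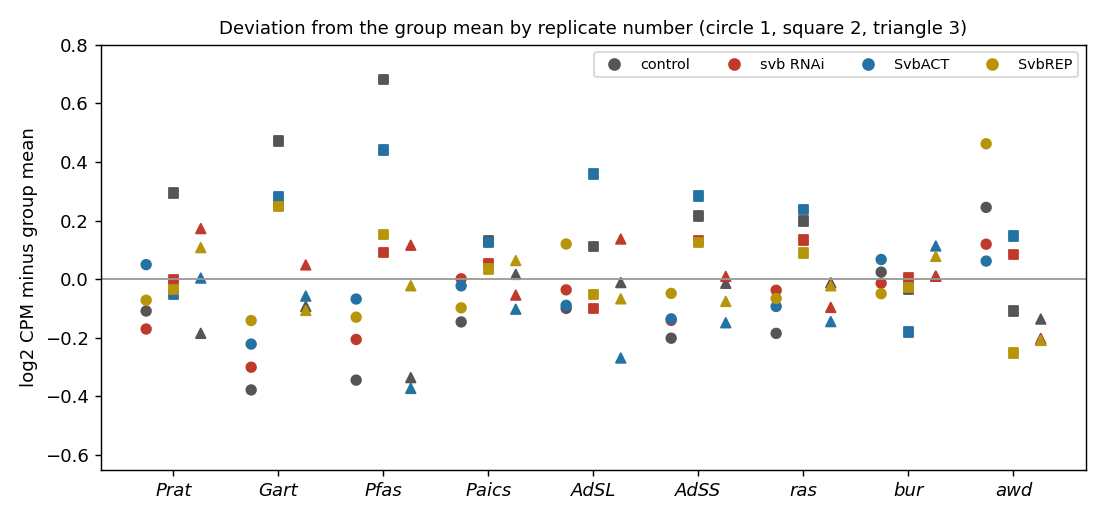
Deviation of log2 CPM from the group mean (vertical axis) for the 9 genes, with circles, squares and triangles for replicates 1, 2 and 3 and colours for the 4 groups. The squares lie above 0 in every group for Gart, Pfas, Paics, AdSS and ras, and the triangles lie below 0 in every group for awd.

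The genes whose pattern over the 12 libraries was most like that of Gart came from outside the set. Likeness was the root-mean-square difference of centred log2 CPM, which includes the libraries the set was chosen on. The closest of 7991 genes were CG43693 (0.15 log2 units), alphaCOP (0.15), a subunit of the coatomer of Golgi transport vesicles, Cubn (0.16), an endocytic receptor, CG12237 (0.17) and Karybeta3 (0.18), a nuclear import receptor. Mean alphaCOP levels were 200.3 CPM for SvbACT, 192 for control, 212 for SvbREP and 106 for the libraries labelled svb RNAi. Within the set, AdSS was closest to Gart at 0.30 log2 units, place 207, followed by Pfas at 0.34, place 423. Paics was farthest at 0.67, place 5014, beyond the median gene at 0.60.

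The other steps of the route were examined in a list of 11 genes, of which 9 were in the table and were tested, with Prat2 and Adk1 not analysed here. Prps, which makes the ribose phosphate donor that Prat uses, had 346 ± 16.6 CPM in control, 386 ± 13.2 in SvbREP and 316 ± 31.5 in SvbACT (SD over 3 libraries). Between SvbACT and SvbREP it differed by a log2 value of -0.29 (SE 0.103, adjusted p = 0.0836 by edgeR), or -0.29 (edgeR adjusted p = 0.0344) with the replicate block, and it also passed without SvbACT replicate 3 (edgeR adjusted p = 0.0498) and with DESeq2 (adjusted p = 0.0370). The libraries labelled svb RNAi held 311, 278 and 268 CPM, all below the control libraries at 362, 329 and 349, with a log2 fold change of -0.28 (SE 0.103). CG11089, the gene for the last ring-closing steps, overlapped control in each of the other groups, with log2 fold changes of 0.41 (SE 0.254) in SvbACT and 0.32 (SE 0.256) in SvbREP. The first ran from 0.15 to 0.67 with one library left out, lowest without SvbACT replicate 2 and highest without control replicate 2. The second ran from 0.12 to 0.58, lowest without control replicate 3 and highest without control replicate 2.

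Of these 9 genes, 2 rose in SvbACT against control and 0 fell, beside 3.92% higher and 5.23% lower over all tested genes. Both encode ribonucleotide reductase, the enzyme that turns ribonucleotides into the precursors of DNA. RnrL, its large subunit, was at 93.7, 73.5 and 73.0 CPM in SvbACT and 31.7, 36.4 and 28.6 in control, a log2 fold change of 1.31 (SE 0.183, adjusted p = 2.14e-04 by edgeR). RnrS, the small subunit, was at 104, 114 and 89.3 CPM against 51.3, 70.0 and 52.4, a log2 fold change of 0.82 (SE 0.153, adjusted p = 0.00230 by edgeR). Groups did not overlap for either. Against SvbREP, where RnrL was at 26.8, 20.9 and 23.1 CPM and RnrS at 47.5, 37.4 and 44.8, the log2 fold changes were 1.77 (SE 0.190, adjusted p = 9.65e-06 by edgeR) and 1.24 (SE 0.157, adjusted p = 4.75e-05 by edgeR). Cell cycle markers, a list that also holds RnrL, moved with them, 10 of 20 tested higher and 0 lower in SvbACT, with summed levels of 1521 to 1634 CPM against 936 to 1083. In SvbREP against control 0 of the 9 genes of the list passed by edgeR or DESeq2, and 3 had an unadjusted p-value under 0.05. By edgeR 4.05% of all tested genes passed there. The median log2 fold change of the list was 0.23 in SvbACT and 0.16 in SvbREP against control, beside 0.0056 and -0.0031 for all genes.

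**Figure D4:**
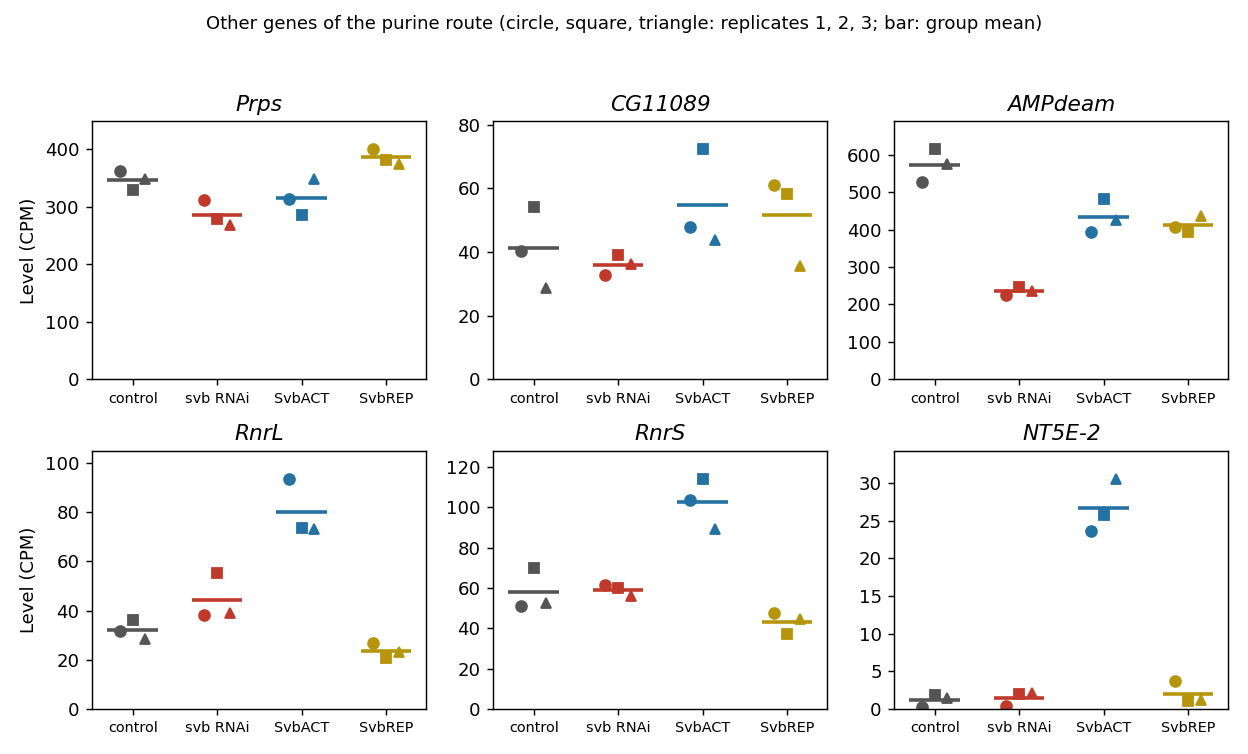
Levels in CPM (vertical axes, each from 0) of 6 further genes of purine metabolism in the 12 libraries, by group, with symbols for replicates 1, 2 and 3 and a bar for the group mean. RnrL, RnrS and NT5E-2 are highest in SvbACT, and AMPdeam is below all control libraries in each of the other groups.

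Among salvage and breakdown genes, 14 of 23 listed were in the table and tested. AMPdeam encodes AMP deaminase, which returns AMP to IMP and so closes a cycle with AdSS and AdSL. It fell in both overexpressing groups, from 527, 615 and 575 CPM in control to 393, 482 and 425 in SvbACT and 407, 392 and 435 in SvbREP. The log2 fold changes were -0.40 (SE 0.104, adjusted p = 0.0225 by edgeR) and -0.48 (SE 0.104, adjusted p = 0.0159 by edgeR), against shared control libraries, and in both cases every library was below every control library. Leaving out control replicate 2 or 3, or SvbACT replicate 1 or 3, lost the SvbACT call, as did a fit of only the groups compared (edgeR adjusted p = 0.0800, 0.0842, 0.136, 0.0779 and 0.0591). Leaving out control replicate 2 or 3, or SvbREP replicate 1 or 2, lost the SvbREP call (edgeR adjusted p = 0.0518, 0.0806, 0.0710 and 0.0945). In the libraries labelled svb RNAi it was at 226, 246 and 236 CPM, a log2 fold change of -1.28 (SE 0.106), and AdSL, the third gene of that cycle, overlapped control there.

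NT5E-2, a nucleotidase gene, rose in SvbACT from 1, 10 and 9 counts in control to 101, 127 and 175 counts. Its log2 fold change was 4.50 (SE 0.595, adjusted p = 1.28e-04 by edgeR) against control and 3.80 (SE 0.585, adjusted p = 3.40e-04 by edgeR) against SvbREP. The remaining salvage genes passed in neither SvbACT nor SvbREP against control, and the medians of the 14 were -0.091 and 0.19 on the log2 scale. In the libraries labelled svb RNAi, Adgf-A, a secreted adenosine deaminase, was at 6.17, 3.39 and 6.02 CPM against 77.2, 82.7 and 80.2 in control, with a log2 fold change of -3.95 (SE 0.210). There, 3 of the 14 genes were called lower by edgeR, AMPdeam, Adgf-A and the nucleoside transporter gene Ent3, and 0 higher, beside 13.7% of all genes called lower in this comparison.

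Pyrimidine metabolism was examined as the companion route, with 14 of 16 listed genes in the table and 13 tested. Over all tested genes 3.92% were called higher in SvbACT and 1.35% in SvbREP against control, and 6.51% higher in SvbACT than in SvbREP. In SvbACT 1 rose against control, Ts, the thymidylate synthase gene, from 3.36, 3.76 and 2.73 to 21.3, 15.2 and 9.45 CPM, a log2 fold change of 2.21 (SE 0.461, adjusted p = 0.00550 by edgeR). Against SvbREP, Ts and dUTPase, which removes dUTP, were higher in SvbACT by 2.84 (SE 0.494, adjusted p = 0.00102 by edgeR) and 1.07 (SE 0.245, adjusted p = 0.00811 by edgeR) on the log2 scale. In SvbREP 1 rose against control, r (rudimentary), which encodes the enzyme that opens the pyrimidine route, from 274, 492 and 304 to 589, 702 and 603 CPM, a log2 fold change of 0.82 (SE 0.190, adjusted p = 0.0222 by edgeR). That call was lost without control replicate 1 or 3 or SvbREP replicate 1 or 2 (edgeR adjusted p = 0.0902, 0.130, 0.0509 and 0.102), and when only the groups compared were fitted (edgeR adjusted p = 0.0649). The medians of the 13 genes were 0.28 in SvbACT and 0.13 in SvbREP on the log2 scale.

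Supply routes were examined last. By edgeR 9.15% of all tested genes passed in SvbACT and 4.05% in SvbREP against control, and 13.1% between SvbACT and SvbREP. With 6 and 7 genes tested, the counts below are near these shares, and nothing is read from them. Of 6 tested genes of folate and serine metabolism, 0 passed by edgeR in SvbACT or in SvbREP against control, where 2 in each had an unadjusted p-value under 0.05 and DESeq2 called 1 in each. Between SvbACT and SvbREP 1 was higher in SvbACT, aay, a phosphoserine phosphatase gene, at 31, 25 and 22 counts against 5, 1 and 4, a log2 fold change of 2.63 (SE 0.687, adjusted p = 0.0185 by edgeR). It was lost without SvbACT replicate 1, SvbREP replicate 2 or SvbREP replicate 3 (edgeR adjusted p = 0.0818, 0.0758 and 0.0552). Of 7 pentose phosphate genes, which supply ribose phosphate, 0 passed by edgeR or DESeq2 in SvbACT against control, in SvbREP against control or between these groups, and 0, 1 and 1 had an unadjusted p-value under 0.05. Medians against control were 0.28 and -0.34 for the folate and serine genes, and 0.10 and -0.032 for the pentose phosphate genes, in SvbACT and SvbREP.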

How the data were processed

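Per the labels' protocols, total RNA was turned into libraries with the Ovation SoLo kit, which were sequenced as single reads of 100 nt. FastQC 0.11.5, STAR 2.5.2b, HTSeq 0.6.0, edgeR and the dm6 build are named in the submitters' processing notes. Strand setting and annotation are not given in the sources used here. The authors deposited whole-number counts per gene for 12 samples, and, for 5 comparisons, log2 fold changes, unadjusted p-values and calls coded as a score. For the 9 genes, log2 values recomputed here and those of the authors' deposited table were within 0.0246 of each other.

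From the deposited counts, edgeR 4.0.16 (R 4.3.3) was fitted to all 12 libraries with a mean per group and TMM factors, after filterByExpr (minimum count 10, minimum total 15, minimum proportion 0.7), which kept 7992 genes. Its quasi-likelihood F test gave p-values, adjusted by the Benjamini-Hochberg method over all tested genes and called under 0.05. Standard errors are the absolute log2 fold change over the square root of F. The procedure was tested on simulated data. Log2 CPM used a prior count of 2. Symbols come from the table, and 8686 of 8802 identifiers matched the annotation, which names AdSL and AdSS Adsl and Adss. A floor of 3 counts equalled 0.456 to 1.01 CPM, for counting error only.

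Same-numbered libraries had correlated deviations from group means over 7992 genes of 0.113, 0.248 and 0.189 for SvbACT and control (replicates 1, 2 and 3), and 0.103, 0.126 and 0.199 for SvbACT and SvbREP. These comparisons were taken as paired only in that block values and same-number ratios are given beside some results. Tests and calls used no block unless one is named. The other comparisons with control had lower values for replicate 1 (0.0674 for svb RNAi and -0.0809 for SvbREP) and were not taken as paired. The correlations are weak, and pairing was judged on the same data, since the labels name no block. The block itself was fitted over all libraries at once. Whether samples were separate biological replicates rests on the series' design text. The purine genes and all gene lists were chosen with earlier results of these data known. Outside the 9 genes and the cell markers, values are given for Prps and CG11089, up to 4 called genes per list and comparison, and the 5 genes most like Gart. Marker genes named singly followed no such rule, and not all of them were called. Alternatives were RLE and upper quartile factors, no filter, DESeq2 1.42.0, fits of only the groups compared, a replicate block and leaving out each library.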

Additional observations from a re-analysis of the deposited data

How the results depend on the processing

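In SvbACT against control, 1 of the 9 genes passed with DESeq2 and 1 with the replicate block (AdSS in both), and 0 to 1 with one library left out. Calls over all genes were 900 of 8612 with DESeq2, 1047 of 7992 with the block and 460 to 769 with one library left out. In SvbREP against control 1 passed with the replicate block (Paics, adjusted p = 0.0496 by edgeR), where 663 of 7992 genes were called, and 0 in each fit with a library left out. Between SvbACT and SvbREP 2 passed with RLE factors, upper quartile factors, DESeq2 and the replicate block (AdSS and Paics), and 0 to 2 with one library left out. Calls over all genes there were 1043, 1058 and 1405 of 7992 with RLE factors, upper quartile factors and the block. They were 1256 of 8612 with DESeq2 and 702 to 1143 with one library left out. The libraries labelled svb RNAi and control were not taken as paired (correlations of 0.0674, 0.195 and 0.170). Between them 2 to 4 of the 9 genes were called with one library left out, beside 1168 to 1690 calls over all genes. There the call of Gart was lost without control replicate 2 or svb RNAi replicate 1, and that of awd without control replicate 2 or 3, svb RNAi replicate 1 or 2, or SvbACT replicate 1. SvbREP and control were not taken as paired either, with correlations of -0.0809, 0.246 and 0.117. The block changed no call of the 9 genes beyond those given.

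Calls over all genes went from 324 to 663 with the block in SvbREP against control, and from 324 to 526 with DESeq2. Without control replicate 3 they were 172, without SvbREP replicate 1 or 2 195 or 182, and in SvbACT against control, with 731 calls over all libraries, they were 466 without control replicate 3 and 460 without SvbACT replicate 1. Upper quartile factors moved the median log2 fold change of all genes in the libraries labelled svb RNAi from 0.022 to 0.13 and the higher calls from 539 of 1633 to 871 of 1806. With one library left out, higher calls there ran from 269 (without control replicate 3) to 603, and in SvbREP against control from 54 (without control replicate 3) to 232 (without SvbREP replicate 3), where they were 108 over all libraries.

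Values near 0 changed sign and were never called. With upper quartile factors Paics and ras in SvbACT became 0.0069 and 0.0045, and Prat in the libraries labelled svb RNAi 0.054. With one library left out, log2 fold changes in SvbACT against control ran -0.047 to 0.40 for Gart, -0.079 to 0.061 for Paics, -0.035 to 0.22 for Prat and -0.14 to 0.10 for ras. In SvbREP against control they ran -0.15 to 0.30 for Gart, -0.076 to 0.18 for Prat and -0.060 to 0.33 for awd. Between SvbACT and SvbREP they ran -0.19 to 0.15 for AdSL, -0.056 to 0.23 for Gart, -0.029 to 0.40 for Pfas, -0.17 to 0.22 for awd and -0.17 to 0.23 for CG11089. In the libraries labelled svb RNAi they ran -0.15 to 0.46 for Pfas, -0.16 to 0.10 for Prat, -0.044 to 0.15 for ras and -0.41 to 0.052 for CG11089. The cause of these changes was not tested. With 3 libraries a group, Pfas and Gart, with standard errors of 0.260 and 0.202 in SvbACT, were the least precise of the 9.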
